A study of Oncorhynchus mykiss with 12 samples.

Results

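The miRNA population of wild-type rainbow trout (Oncorhynchus mykiss) dorsal skin was described from 3 miRNA-Seq samples of the 12 samples in the series, chosen by their genotype and assay labels. The series compared dorsal skin of wild-type trout with that of a yellow mutant colour form, by RNA-Seq and by miRNA-Seq. Per the series text, fish of both colour forms came from the F1 generation of a cross in which the father was wild-type and the mother a yellow mutant. The tissue was frozen in liquid nitrogen and its total RNA extracted with Trizol. No treatment is labelled, and neither the age of the fish nor whether a sample is 1 fish or a pool is given, so the spread between the 3 libraries may be technical. Since the group stands alone here, no test was made, and each value is given per library or as mean ± SD (n = 3).

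MicroRNAs are short RNAs cut from a hairpin precursor that guide Argonaute proteins to messenger RNAs and lower their stability and translation. Target choice rests mainly on the seed, the stretch near the 5′ end of the mature RNA, so miRNAs with the same seed are grouped as related. Either arm of the hairpin can give a mature miRNA, and usually one arm is kept far more than the other. In vertebrate skin, miR-203, miR-205 and the miR-200 family are known from the epidermis, whereas miR-199, miR-214, miR-143 and miR-145 are known from mesenchymal and smooth muscle cells.

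The sequences of the entries that carried most reads, as listed in the deposited table, are shown first because the abundance order and the arm results turn on them. They are written 5′ to 3′ in DNA letters (T for U), and the capitals mark the seed, bases 2 to 8.
miR-199-x: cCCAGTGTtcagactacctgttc
miR-199-y: aCAGTAGTctgcacattggtt
miR-181-x: aACATTCAacgctgtcggtgag
miR-10-x: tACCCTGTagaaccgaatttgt
miR-100-x: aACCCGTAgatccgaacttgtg
miR-99-x: aACCCGTAgatccgatcttgt
let-7-x: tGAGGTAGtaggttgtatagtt
miR-26-x: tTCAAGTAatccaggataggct
miR-27-y: tTCACAGTggctaagttctgc
miR-204-x: tTCCCTTTgtcatcctatgcct
miR-211-z: tTCCCTTTgtcatcctatgcct
The miR-100-x and miR-99-x entries share a seed, and miR-204-x and miR-211-z have one listed sequence under different names. The 2 arms of miR-199, x and y, have different seeds and therefore belong to different seed groups.

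No source used here defines the endings x, y and z, so their meaning was read from the table itself. Predicted entries carry an explicit arm, 5p or 3p, and 38 of them overlapped a known entry by at least 16 bases. These arm labels have a limit, since 37 of 164 sequences shared by predicted entries are listed under both arms. A known entry overlapped by several predicted entries was counted with each of them, so the cases are not independent. Known entries ending in x matched predicted 5p entries in 22 cases and 3p entries in 0, whereas those ending in y matched 3p entries in 17 cases and 5p entries in 0. The ending x is therefore treated below as the 5′ arm and y as the 3′ arm. Of the 455 known entries, in 264 families, 168 end in x, 162 in y and 125 in z, and the other 824 of the 1279 entries are predicted. The x entries held 82.8% of reads, the y entries 14.3% and the z entries 2.50%.

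Values are RPM, the reads of an entry scaled to a fixed total of reads per library, headed TPM by the authors and not scaled to length. The spacing of the low values gave denominators of 10405697, 9162871 and 9552748 reads in replicates 1, 2 and 3. A single read was worth 0.0961 to 0.109 RPM, and 3 reads, used as the floor, 0.288 to 0.327 RPM. Reads were listed for 1137, 1123 and 1104 entries. Across the 409 entries with at least 1 RPM in each library, log2 values of pairs of libraries had Pearson correlations of 0.983 to 0.990, given as a description across entries that share library and depth.

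A single miRNA made up about as many reads as all others together. Whether different sequences were captured alike was not tested, so levels, ratios and arm shares here compare reads, not molecules. The 5′ arm of miR-199, miR-199-x, stood at 581122, 539647 and 458397 RPM in replicates 1, 2 and 3. It was the most abundant entry in each library, highest in replicate 1 and lowest in replicate 3. Its share of the reads summed over all entries was 57.5% in replicate 1 (95% Wilson interval 57.4 to 57.5%). It was 53.3% in replicate 2 (53.2 to 53.3%) and 45.0% in replicate 3 (44.9 to 45.0%), or 51.9 ± 6.36% on average. This sum exceeds the denominator, at 10524189 against 10405697 reads in replicate 1, so the shares lie below those that RPM would give. These intervals cover counting error only, and the libraries lie much farther apart than the intervals are wide.

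Next came miR-181-x, from a family known for roles in lymphocyte development, at 53566, 50268 and 57094 RPM. Ranked after it by mean was miR-10-x, whose genes lie in the Hox clusters, at 41310, 50489 and 53371 RPM. Their order was not stable, since miR-10-x exceeded miR-181-x in replicate 2. The miR-100-x entry followed at 33998, 39304 and 42914 RPM. Then came let-7-x, of the family first known as regulators of developmental timing in worms, at 28273, 38160 and 43340 RPM. In RPM, miR-10-x, miR-100-x and let-7-x were lowest in replicate 1 and highest in replicate 3, the reverse of miR-199-x. Per reads outside miR-199-x this order was lost, with miR-10-x at 96011, 106609 and 95097 and miR-100-x at 79016, 82993 and 76464, both lowest in replicate 3, and let-7-x highest in replicate 2. The 3′ arm, miR-199-y, ranked 6 by mean at 28039, 38232 and 43330 RPM and followed let-7-x rather than its own 5′ arm across the libraries.

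Completing the leading 10 entries were miR-26-x (32400 ± 4666 RPM), miR-27-y (25473 ± 5368 RPM), miR-125-x (21775 ± 1487 RPM) and miR-22-y (17696 ± 1661 RPM). The miR-125 family is the vertebrate counterpart of worm lin-4, and miR-22 is a broadly expressed single-gene miRNA in mammals. Ranks 11 to 20 by mean ran from miR-21-x at 14005 RPM, a miRNA raised in wound healing and fibrosis in mammals, down to miR-23-y at 6634 RPM. Between them stood miR-99-x, miR-30-x, miR-204-x, miR-126-y, miR-211-z, miR-205-x, miR-143-y and miR-146-x. Of these 10 entries, miR-30-x was the most even in RPM, at 11945, 11480 and 12651, with a coefficient of variation (SD over mean) of 4.90%. Per reads outside miR-199-x it came to 10.7%, and miR-99-x was the most even at 3.95%. The least even on both scales were miR-204-x and miR-211-z, both highest in replicate 3.

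**Figure D1:**
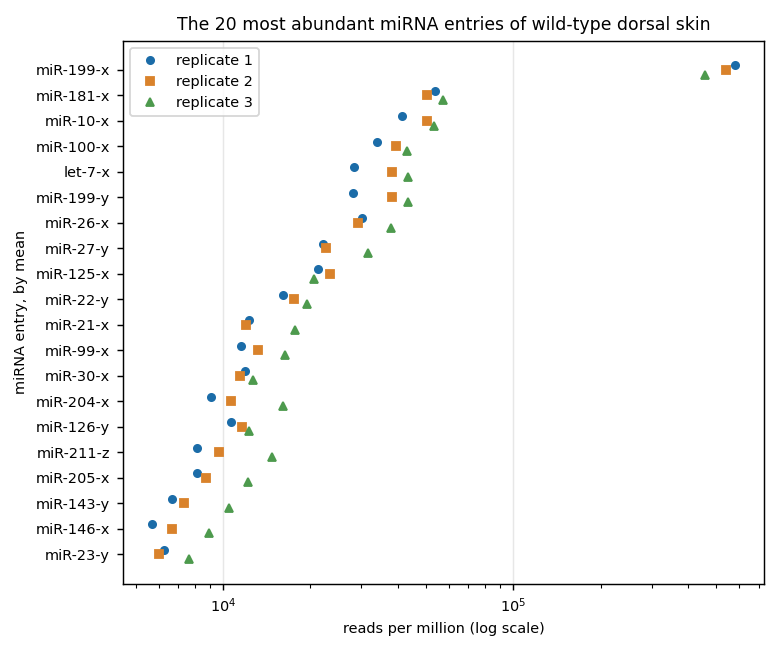
Level in RPM (log axis) of the 20 most abundant entries in each of the 3 wild-type libraries, ordered by mean. The miR-199-x entry lies between 458397 and 581122 RPM and the next entry between 50268 and 57094 RPM, and most entries below it are highest in replicate 3.

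Reads were concentrated in few entries. The 10 most abundant held 82.6 ± 2.90% of reads, the first 20 held 93.0 ± 0.919% and the first 100 held 99.5 ± 0.0502%. In replicates 1 and 2 a single entry sufficed to reach 50% of reads, and in replicate 3 it took 2. With miR-199-x set aside, 6, 6 and 7 entries were needed to reach 50% of what remained, and the 10 most abundant of the other entries held 66.7 ± 1.21%. By abundance class, 16 entries had a mean of at least 10000 RPM and held 89.8% of reads, and 25 entries between 1000 and 10000 RPM held 7.59%. At the other end, 762 entries had a mean below 1 RPM and together held 0.0245% of reads, and 16 had no read in any of the 3 libraries. The median coefficient of variation was 13.7% in the highest class and 32.6% among entries between 1 and 10 RPM, and larger still among entries below 1 RPM.

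**Figure D2:**
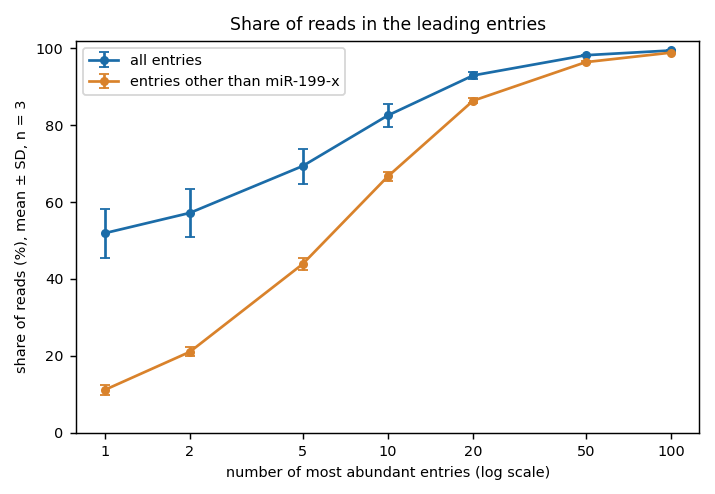
Share of reads (percent, mean ± SD over 3 libraries) in the 1 to 100 most abundant entries (log axis), over all entries and with miR-199-x set aside. The first 10 entries hold 82.6% of all reads and 66.7% of the reads outside miR-199-x, where the error bars are also shorter.

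At a level of at least 1 RPM in each library, 409 of the 1279 entries and 146 of the 264 known families were present. At 10 RPM in each library, 206 entries and 108 families remained. Predicted entries made up 156 of the 409 but held 0.361 ± 0.0275% of reads. The most abundant predicted sequence, listed under 2 names, stood at 838, 924 and 1039 RPM, and the next, which overlaps miR-205-y, at 120 ± 17.2 RPM.

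Summed by family name, miR-199 held 55.5 ± 5.67% of reads. It was followed by miR-181 (5.44 ± 0.342%), miR-10 (4.77 ± 0.605%), miR-100 (4.17 ± 0.429%), let-7 (3.77 ± 0.758%), miR-26 (3.19 ± 0.446%) and miR-27 (2.55 ± 0.519%). The families miR-125 (2.26 ± 0.156%), miR-22 (1.78 ± 0.162%), miR-99 (1.64 ± 0.231%), miR-21 (1.42 ± 0.322%) and miR-30 (1.24 ± 0.0592%) came next. The last of the leading 15 families were miR-204 (1.18 ± 0.356%), miR-126 (1.16 ± 0.0830%) and miR-211 (1.07 ± 0.337%). The order was partly stable. Of the 19 pairs of neighbours among the first 20 families, 11 had the same order within each of the 3 libraries, such as miR-181 over miR-10 and miR-10 over miR-100. Across libraries, among the first 20 families, the ranges over the libraries of neighbouring families overlapped except between miR-199 and miR-181 and between miR-125 and miR-22. The lowest miR-125 value, 21675 RPM, lay above the highest miR-22 value, 19890 RPM.

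Grouping by seed changed the order below miR-199. The seed of miR-199-x held 51.9 ± 6.36% of reads, and the seed of miR-199-y, taken as its own group, 3.6 ± 0.754%. The seed ACCCGTA of miR-100 and miR-99, miRNAs whose genes neighbour let-7 genes in vertebrates, summed to 52544, 58106 and 66174 RPM (5.81 ± 0.650% of reads) and stood second, with a range that overlapped that of miR-181. The let-7 seed GAGGTAG was listed under 6 family names, yet miR-98 and 4 others added little, and the seed group held 3.72 ± 0.763% of reads against 3.77 ± 0.758% for entries named let-7. For 3 more of the 6 most abundant seeds with several names, a single family gave nearly all reads. Seed TCACAGT, of miR-27 and miR-9985, held 2.52%, CCCTGAG, of miR-125, lin-4 and miR-351, 2.24%, and AGCTGCC, of miR-22 and miR-3966, 1.77%. In all, 350 distinct seeds were listed, and 32 of them carried at least 2 family names.

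The seed TCCCTTT, of miR-204 and miR-211, held 2.25 ± 0.692% of reads, but this sum counts one sequence under both names. With each listed sequence taken once, at the higher of its values, the seed held 1.19%. In all, 9 pairs of known entries share a listed sequence in this way, and the values differ within 9 of 9 pairs (9100 RPM for miR-204-x and 8164 RPM for miR-211-z in replicate 1). The values of such a pair therefore cannot both be the number of reads identical to the listed sequence. The entries of a library summed to 1011387, 1013233 and 1019627 RPM, and with each listed sequence taken once to 1001541, 1001727 and 1002835 RPM.

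Families known as markers of cell types were described by list, as counts of members and summed level. At 1 RPM in each library 146 of all 264 known families were present, so presence of list members alone does not mark a cell type. In bulk tissue, fewer cells of a type and less RNA per cell cannot be told apart. Of 8 epithelial families against which the labelled tissue was checked, 7 had an entry, and those 7 were at 1 RPM or more in each library. The eighth, miR-31, is not analysed here. Together the 7 held 16132, 19088 and 29146 RPM, or 2.11 ± 0.662% of reads, with replicate 3 the highest. These 7 include miR-24, which is encoded with miR-23 and miR-27, families counted below as common to many tissues. The sum therefore does not measure epithelial cells alone.

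Among the epithelial families miR-205, which is enriched in stratified epithelia, led at 8308, 8868 and 12397 RPM. The miR-200 family, which restrains the ZEB repressors and so keeps epithelial character in mammals, stood at 3823, 4855 and 7494 RPM. The miR-203 family, which limits p63 in differentiating mouse epidermis, stood at 544, 838 and 1463 RPM. All 3 were lowest in replicate 1 and highest in replicate 3, and so were miR-184 (789, 1380 and 2562 RPM) and miR-141 (523, 739 and 1471 RPM). The remaining members, miR-24 and miR-429, had means of 2722 and 48.8 RPM. The 3′ arm entries of this group show how close some of its names are, since the listed miR-141-y is miR-200-y without its last base.
miR-205-x: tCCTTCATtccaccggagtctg
miR-200-y: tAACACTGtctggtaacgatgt
miR-141-y: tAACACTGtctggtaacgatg
miR-429-y: tAATACTGtctggtaatgccgt
miR-203-y: gTGAAATGtttaggaccacttg
The first 2 names after miR-205 share the seed AACACTG, and whether the values of miR-200 and miR-141 count the same molecules in part was not tested.

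Families listed for mural and connective tissue held 60.6 ± 4.91% of reads, and 9 of 9 were at 1 RPM or more in each library. Without miR-199-x the list held 17.2, 18.2 and 18.6% of the remaining reads in replicates 1, 2 and 3. After miR-199, its leading members were miR-22, miR-21 (12602, 12339 and 18247 RPM), miR-143 (6824, 7520 and 10724 RPM) and miR-152 (6437, 6482 and 7444 RPM). As miR-22 is broadly expressed in mammals, the share of the list does not measure mural or connective tissue cells alone. The miR-143 family, known from vascular smooth muscle, was 8.55 ± 1.28-fold above miR-145, with which it is encoded. The family miR-214 stood at 1944, 2355 and 2787 RPM, and miR-140, known from cartilage, at 521, 479 and 542 RPM.

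The endothelial miR-126, which acts in vessel integrity in zebrafish and mouse, was among the more even families, at 10853, 11948 and 12609 RPM. Of the leukocyte families 5 of 5 were present at 1 RPM in each library. Most of their sum came from miR-146, a feedback inhibitor of NF-κB signalling that other cells express too, at 5732, 6714 and 9016 RPM. The more restricted blood families were lower, with miR-142 at 374, 424 and 463 RPM, miR-150 at 129 ± 22.5 RPM, the myeloid miR-223 at 22.1 ± 6.54 RPM and miR-155 at 3.65 ± 0.671 RPM. The red cell miRNA miR-451, whose maturation uses Argonaute 2 in place of Dicer in zebrafish and mouse, stood at 86.8, 72.9 and 53.0 RPM. Its neighbour miR-144 stood at 32.5 ± 3.83 RPM, and miR-486 at 0.577, 2.07 and 0.314 RPM, the last at the floor of 3 reads. Unlike the epithelial families, miR-451 was highest in replicate 1 and lowest in replicate 3. The other members, miR-144 (33.6, 35.7 and 28.3 RPM) and miR-486, were highest in replicate 2 and also lowest in replicate 3.

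The pigment cell list held miR-204 and miR-211, whose genes in mammals lie within TRPM3 and TRPM1, the latter a gene of melanocytes. The families stood at 9134, 10677 and 16124 RPM and at 8166, 9677 and 14792 RPM. Because their leading entries list one sequence, these levels cannot be assigned to either gene. Both names were lowest in replicate 1 and highest in replicate 3.

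Muscle families were present at lower levels. The list summed to 1505, 970 and 2038 RPM, lowest in replicate 2 and highest in replicate 3, a 2.1-fold range. Its members miR-206 (492, 374 and 846 RPM), miR-1 (473, 335 and 721 RPM) and miR-133 (335, 164 and 386 RPM) had the same order of libraries in RPM. The slow and cardiac muscle member miR-499 did not, being highest in replicate 1 (204, 96.4 and 85.6 RPM), and miR-208 was at 0, 0.327 and 0 RPM, where the single value stands at the floor of 3 reads. Per reads outside miR-199-x, miR-206, miR-1 and miR-133 were still lowest in replicate 2. There miR-133 was highest in replicate 1, at 0.0779, 0.0347 and 0.0687%, and miR-206 and miR-1 in replicate 3. How much muscle each skin sample held was not tested.

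Families of other organs were low, with an exception in a single library. The liver miRNA miR-122 stood at 1100 RPM in replicate 1, against 163 and 158 RPM in replicates 2 and 3, a 6.97-fold range. In the same library the gut, liver and kidney families were also highest, with miR-192 at 113, 60.1 and 47.0 RPM, miR-194 at 23.8, 10.5 and 11.5 RPM and miR-215 at 6.63, 2.51 and 1.88 RPM. Whether RNA of another organ contributed to replicate 1 was not tested. The endocrine miR-375, known from pancreatic islets and also from other secretory cells, stood at 239, 374 and 514 RPM, with the opposite order of libraries. The sensory cluster miR-183, miR-182 and miR-96 stood at 62.9 ± 23.1, 32.5 ± 10.4 and 20.5 ± 4.85 RPM.

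Of the neural and glial families, miR-128 led at 1138 ± 210 RPM. The families miR-7 and miR-9 stood at 42.8 ± 1.74 and 25.9 ± 1.72 RPM, and the neuron-enriched miR-124 at 3.02 ± 1.32 RPM. The oligodendrocyte miRNA miR-219 was at 0.481, 0.327 and 0.209 RPM, at the floor of 3 reads in replicate 2 and below it in replicate 3. The family miR-430, which clears maternal mRNA in fish embryos, was at 0.192, 1.42 and 0.419 RPM, below the floor in replicate 1. Teleost miR-462 and miR-731, which are induced by interferon in fish, were present without any treatment label, at 803 ± 83.5 and 187 ± 19.2 RPM. The hypoxia-induced miR-210 stood at 511, 643 and 728 RPM.

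Among families common to many tissues, 13 of 13 of the general list, 5 of 5 of let-7 and its partners and 8 of 8 with an entry in the miR-17-92 group were present at 1 RPM in each library. They held 14.0 ± 1.5%, 11.8 ± 1.36% and 0.580 ± 0.0482% of reads. The Hox cluster list rested on miR-10, since miR-196, which targets Hox genes in mouse, stood at 453 ± 61.5 RPM. The families miR-363 and miR-615 are not analysed here.

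**Figure D3:**
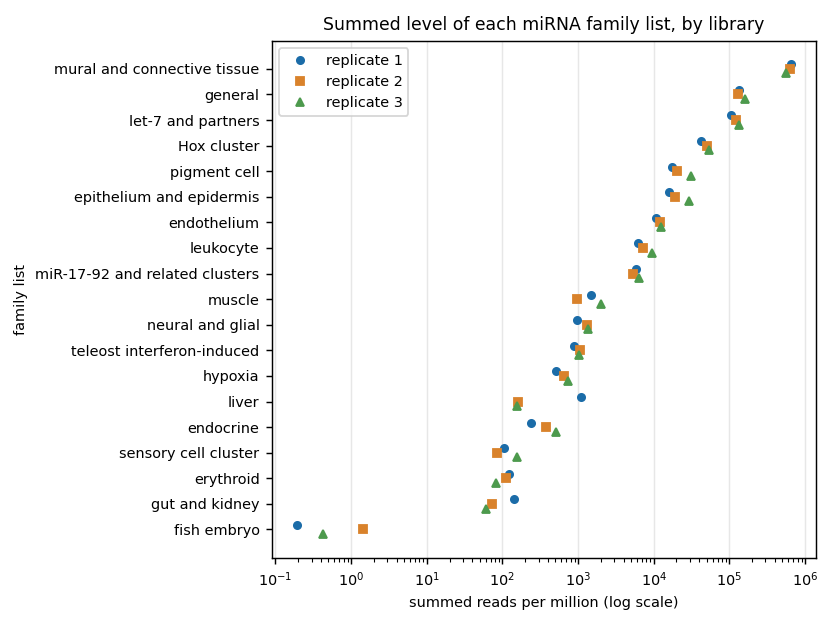
Summed level in RPM (log axis) of each of 19 lists of miRNA families, with 1 point per wild-type library. The liver list stands apart in replicate 1, at 1100 against 163 and 158 RPM, the muscle list is lowest in replicate 2, and the epithelial and pigment cell lists are highest in replicate 3.

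Families encoded side by side in vertebrate genomes, and transcribed together as background knowledge has it, were compared as ratios within each library. For 11 such groups 16 ratios were formed, each of the more abundant family to another of its group. They ran from 1.71 ± 0.164 for miR-16 over miR-15 to 246 ± 66.7 for miR-199 over miR-214, and 6 of the 16 exceeded 5. Families also have copies outside these groups, so a ratio compares summed families, not single transcripts.

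Between the libraries the ratios differed to varying degrees, with the highest library 1.03- to 1.82-fold above the lowest. In 13 of 16 ratios the highest library was within 1.5-fold of the lowest, and in 5 within 1.221-fold. Whether families encoded apart have less steady ratios was not tested. The steadiest was miR-462 over miR-731, at 4.26, 4.24 and 4.36 in replicates 1, 2 and 3. In the cluster of miR-23, miR-27 and miR-24, miR-27 stood 3.76 ± 0.333-fold above miR-23 and 9.69 ± 0.962-fold above miR-24. Within the miR-17-92 group, miR-92 was 50.1 ± 7.66-fold above miR-18 and 41.0 ± 5.99-fold above miR-17. The least steady pair was miR-92 over miR-19, at 1.46, 2.22 and 2.66, followed by miR-199 over miR-214, at 313, 245 and 180. The ratio of miR-1 to miR-133 was 1.41, 2.04 and 1.87, and that of miR-192 to miR-194 4.73, 5.74 and 4.08. Both muscle partners were lowest in replicate 2, and both miR-192 and miR-194 were highest in replicate 1.

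Arm use was measured as the share of the x entry in the reads of the x and y entries of a family. Of 112 families with both entries, 88 had at least 10 RPM over both arms in each library. The main arm was the 5′ arm in 49 and the 3′ arm in 39, and it was the same in all 3 libraries for 88 of 88. In 69 families one arm held over 90% of reads, the 5′ arm in 38 and the 3′ arm in 31. The median share of the main arm was 97.4%, and 12 families had a 5′ share between 25 and 75%. The largest SD of the share was 8.06 percentage points. Shares near 0 or 100% leave little room for an SD in points. The minor arm's own share differed more than 2-fold between libraries in 18 of 88 families, some with no read of the minor arm in a library. It did so as well in miR-194, not counted among the 18, with 0, 3 and 0 minor arm reads. Most of the 18 had 3 or fewer minor arm reads in a library, such as miR-103 (0, 0 and 1) and miR-724 (5, 1 and 1). In miR-203, with 52, 46 and 53 minor arm reads, the minor arm's share was 0.918, 0.599 and 0.379%.

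The 6 most abundant families with a main 5′ arm were miR-199, miR-181, miR-10, miR-100, let-7 and miR-26. In miR-199 the 5′ share was 95.4, 93.4 and 91.4% in replicates 1, 2 and 3, highest in replicate 1, where miR-199-x was also highest and miR-199-y lowest. By mean, at 36534 RPM, the minor arm of miR-199 stood above the main arm of all but 4 other families, miR-181, miR-10, miR-100 and let-7. By library this differed, as miR-26-x exceeded it in replicate 1 (30139 against 28039 RPM) and it exceeded let-7-x in replicate 2 (38232 against 38160 RPM). For miR-181 the share was 97.2 ± 0.293% and for let-7 98.5 ± 0.450%. The minor arm was nearly absent in miR-10 (99.9 ± 0.00691%), miR-100 (99.9 ± 0.00540%) and miR-26 (99.9 ± 0.00396%), where the main arm exceeded it 1307-, 1376- and 1549-fold.

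The most abundant families with a main 3′ arm were miR-27, miR-22, miR-126, miR-143 and miR-23, with 5′ shares of 0.902 ± 0.310%, 0.836 ± 0.183%, 2.37 ± 0.399%, 2.18 ± 0.222% and 0.338 ± 0.0643%. By the sum of both arms miR-200 came next (5119 RPM, 5′ share 0.868 ± 0.0689%), and with z entries counted miR-152 did (4796 RPM over both arms, 5′ share 2.74 ± 0.575%). In miR-126, both of whose arms are known to act in mouse endothelium, the 5′ arm stood at 208, 310 and 330 RPM beside 10645, 11638 and 12279 RPM of the 3′ arm. All 3 families of the cluster of miR-23, miR-27 and miR-24 had the 3′ arm as main arm, with miR-24-y at 1890, 2163 and 3441 RPM and miR-24-x at 159, 148 and 180 RPM.

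The most balanced families by arm were miR-145, miR-106, miR-193, miR-2184, miR-1388 and miR-210. In miR-145 the 5′ share was 43.6, 35.0 and 40.4%, from 405, 313 and 438 RPM of the 5′ arm and 523, 581 and 646 RPM of the 3′ arm. Its cluster partner miR-143 was thus almost all 3′ arm while miR-145 was mixed. The 5′ share was 60.5 ± 4.5% in miR-106, 39.1 ± 4.99% in miR-193, 65.3 ± 3.83% in miR-2184, 65.4 ± 2.80% in miR-1388 and 31.1 ± 0.720% in miR-210. In miR-106 and miR-210 the balance holds only with z entries left out. Adding them to the arm with their seed gave 5′ shares of 91.5 and 19%. The sequence of miR-106-z is also listed as miR-17-x, so its reads cannot be assigned to miR-106 alone. The family miR-1388 shares both of its listed sequences with entries named miR-1338.

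The family with the widest spread was miR-148, related to miR-152 by the seed of its 3′ arm. Its 5′ share was 35.5, 33.0 and 20.4%. The 5′ arm stood at 1227, 1073 and 820 RPM and was lowest in replicate 3, where the 3′ arm, at 2229, 2181 and 3188 RPM, was highest. The arms of miR-145 and miR-148 and the main arm of miR-152 are printed to show their seeds.
miR-145-x: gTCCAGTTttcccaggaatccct
miR-145-y: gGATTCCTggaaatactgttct
miR-148-x: aAGTTCTGtgatacacttcgact
miR-148-y: tCAGTGCAttacagaactttg
miR-152-y: tCAGTGCAtaacagaactttg
The 3′ arms of miR-148 and miR-152 carry the seed CAGTGCA, whereas the 5′ arm of miR-148 carries another, AGTTCTG.

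**Figure D4:**
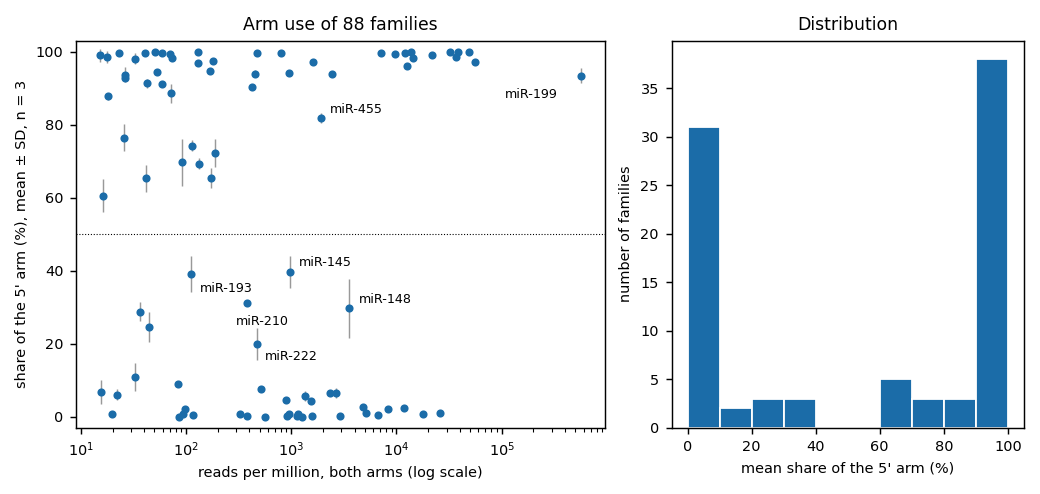
Left, share of the 5′ arm (percent, mean ± SD over 3 libraries) against the summed level of both arms (RPM, log axis) for 88 families. Right, the number of families in each 10% band of that share, with 38 families above 90% and 31 below 10%.

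Entries ending in z were left out of the arm shares. Of the 125, 79 had an arm entry in their family, and the seed of 33 matched the x entry and that of 38 the y entry, allowing a shift of 1 base. The table lists many as length variants. In 28 cases the z sequence was an arm sequence of its family with bases added or removed at an end, and in 23 of these the difference lay at the 3′ end alone. These 28 held 40.8% of z reads, and miR-211-z alone held 42.9%. The miR-100-z entry, at 3710, 3025 and 3844 RPM, is miR-100-x with 1 more base, and miR-152-z, at 2016, 1766 and 2195 RPM, is miR-152-y with 1 more base.
miR-100-z: aACCCGTAgatccgaacttgtga
miR-152-z: tCAGTGCAtaacagaactttgt
miR-133-x: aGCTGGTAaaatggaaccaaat
miR-133-y: tTTGGTCCccttcaaccagcta
miR-133-z: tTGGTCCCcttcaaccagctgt
Among the 88 families with an arm share, the z entry held most of the family's reads in 4, namely miR-1, miR-103, miR-133 and miR-106. The listed sequences of miR-103-z and miR-106-z are also those of miR-107-y and miR-17-x. Over all 111 families with a mean of at least 10 RPM the z entry held most reads in 13, among them miR-211. The families miR-2478 and miR-7977 were listed as z entries alone. Adding z entries to the arm with their seed changed the main arm in miR-133 alone, whose 5′ share went from 92.7 to 7.89%. Its z entry stood at 303, 153 and 352 RPM, against 30.0, 10.7 and 31.7 RPM for the x entry.

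The listed sequences were 18 to 26 bases long. Weighted by reads, 23 bases was the leading length at 55.3 ± 5.99%, followed by 22 bases at 33.3 ± 4.05% and 21 bases at 9.58 ± 1.69%. This order rests on miR-199-x, which has 23 bases. Among the other entries 22 bases held 69.2 ± 0.819% of reads and 23 bases 7.16 ± 0.615%, and of the 1032 distinct sequences 52.6% had 22 bases. The first base behaved alike. Entries that begin with C held 52.3 ± 6.30% of reads, but 0.925 ± 0.00786% once miR-199-x was set aside. Outside miR-199-x, entries that begin with T (U in the RNA) held 60.4 ± 1.05% of reads. Those that begin with A held 38.2 ± 1.10% and those with G 0.509 ± 0.0566%.

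**Figure D5:**
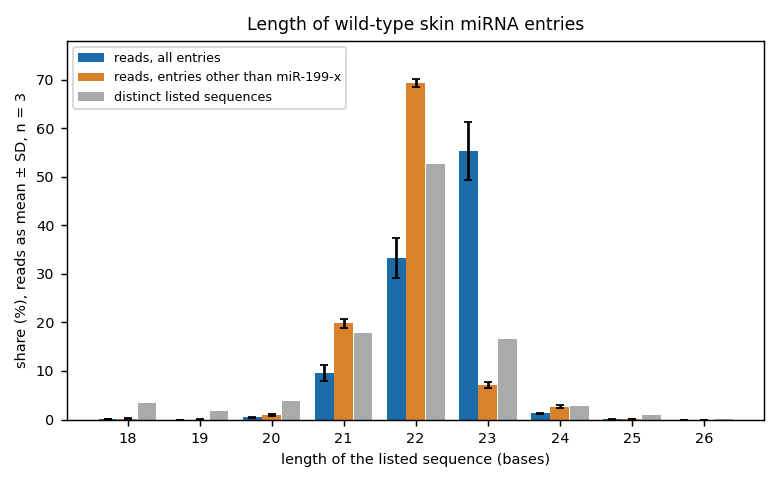
Share (percent) by length of the listed sequence in bases, for reads over all entries and over entries other than miR-199-x (bars with mean ± SD over 3 libraries) and for distinct listed sequences (grey). Weighted by reads, the listed lengths peak at 23 bases with miR-199-x and at 22 bases, with 69.2%, without it.

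Many, though not most, of the shortest known entries had a shared 3′ end. Of 33 known entries of 18 bases, 15 (45.5%) end in CCA, against 5 of 422 longer ones (1.18%), and the 15 held 0.0904% of reads. Mature tRNAs end in CCA as well. The most abundant were miR-2478-z, at 220, 441 and 522 RPM, and miR-7977-z, at 144, 298 and 431 RPM, both lowest in replicate 1. Capitals here mark the shared end.
miR-2478-z: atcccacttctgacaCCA
miR-7977-z: ttcccggccaatgcaCCA
Whether these entries count tRNA fragments was not tested.

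Among the 96 entries with a mean of at least 100 RPM, the median coefficient of variation was 16%, and it exceeded 50% in 4. The largest was that of miR-122-x, 114%, from 1094, 162 and 158 RPM. Next came miR-184-y (57.3%), miR-141-y (54.6%), miR-499-x (50.9%), miR-203-y (49.7%) and miR-7977-z (49.3%). Per reads outside miR-199-x the epithelial entries among these, miR-184-y, miR-141-y and miR-203-y, came to 44.4, 40.8 and 36.3%. The smallest values were those of miR-130-x (4.5%; 2186, 2361 and 2370 RPM), miR-30-x (4.90%), miR-22-z (5.93%), miR-140-y (6.35%), miR-181-x (6.36%) and miR-125-x (6.83%). Outside miR-199-x these values rose, to 8.67% for miR-22-z, 9.88% for miR-130-x, 10.7% for miR-30-x and 10.9% for miR-181-x. The miR-140-y entry came to 11.6% and miR-125-x to 16.2%. Of these 6 only miR-125-x exceeded the median on that scale, 12.4%.

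Because RPM are shares of a fixed total, a library with less miR-199-x has more RPM for other entries. Of the other 95 entries with at least 100 RPM, 69 were highest in replicate 3 and 54 lowest in replicate 1. Rescaled to the reads outside miR-199-x, 31 were highest in replicate 3 and 26 lowest in replicate 1. The larger counts were then 40 highest in replicate 1 and 43 lowest in replicate 3, against 13 and 13 in RPM. The median coefficient of variation fell from 16.1 to 12.4%. On that scale miR-181-x, at 124495, 106144 and 101731, was highest in replicate 1 in place of replicate 3. The epithelial miR-203-y, at 1254, 1759 and 2597, and miR-184-y, at 1824, 2897 and 4543, were still lowest in replicate 1 and highest in replicate 3. The leading epithelial entry, miR-205-x, at 18968, 18462 and 21798, was also highest in replicate 3 but lowest in replicate 2. The miR-122-x entry still stood apart in replicate 1, with a coefficient of variation of 122%.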

How the data were processed

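The deposited miRNA table gives levels in RPM, made by the authors and headed TPM in the deposited file, with no read as 0.01, which was set to 0. That the unit is RPM was read from the values: 100% of low values fell on whole numbers of reads, within 0.1 read, at one step per library for all lengths. Per the submitters' processing notes, TopHat2 2.1.1 and Bowtie2 2.2.8 were among the tools. How reads were counted, and with which genome build, miRNA caller and database, was not given in the sources used here. Columns of yellow mutant skin and the RNA-Seq table were left out.

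Shares are percent of the summed entries, averaged over the 3 libraries with Python 3.11.15, pandas 2.3.3, numpy 2.4.6 and scipy 1.17.1. Families are entry names without their ending. Arm shares needed 10 RPM over both arms in each library. Only the step that reads the denominator from the spacing of the low values was tested on simulated data. Intervals are 95% Wilson intervals, and with the floor of 3 reads they cover counting error only. Named are the 20 leading entries, 15 leading families, the leading family of each of 19 lists, 6 families per kind of arm use, the 6 largest and 6 smallest coefficients of variation from 100 RPM, 6 shared seeds and 3 predicted entries. Pairs within families encoded together, length variants and other list members were added with their values known. The samples, lists and rules were chosen with earlier results of these data known.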

Additional observations from a re-analysis of the deposited data

How the results depend on the processing

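Leaving out 1 library in turn gave 1 to 2 entries for 50% of reads and a median 5′ share of 69.6 to 73.5%. The count of detected entries followed the threshold, with 206 at 10 RPM in each library, 932 with a read in each and 1263 with a read in any, where families numbered 256. Predicted entries held 0.221% of reads with each sequence taken once. With at least 100 RPM summed over both arms in each library, 27 families were mainly 5′ (and 27 mainly 3′) and the median share was 52.5%. With a read on each arm in every library, the median share was 65.5%. Unweighted over distinct sequences, 22 bases made up 52.6%, 23 bases 16.6%, a first T 48.6% and a first C 17.6%. Over entries other than miR-199-x, an alternative chosen after seeing the data, these were 69.2%, 7.16%, 60.4% and 0.925%. Leaving out 1 of 3 libraries cannot move a mean share by 1 SD, so that bar says nothing of stability for the family and list shares. The liver list went from 0.0468 to 0.0158% of reads without replicate 1, and the fish embryo list from 6.67e-05 to 3.0e-05% without replicate 2. That fish embryo list lay below the floor of 3 reads in replicate 1. Of these 34 shares, 34 stayed within 1 SD with known entries only. That setting could hardly move them, as predicted entries held 0.361% of reads. Grouped by seed 5 moved, and with each sequence once 1 did (the pigment cell list). Relative to reads outside miR-199-x, 33 of the 33 tried moved, since its share is taken from the total. The miR-199 share itself was not tried there. In each of the 3 leave-one-out settings the 15 leading families were 15 of 15 the same, and 14 of 15 with each sequence once. No family had more than 1 entry per arm, so taking the most abundant entry per arm changes nothing, and no predicted sequence is also a known one. No paired analysis was possible because a single group was described. Depth limits entries below the floor of 3 reads.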
